A study of Glycine max with 54 samples.

Results

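UGT708D1 is the soybean gene for a flavonoid C-glucosyltransferase, and its transcript was followed in developing seeds of 4 lines. It was measured by 1 probe set (gene ID 100776116), the only one of 37744 on the array whose single annotated gene is UGT708D1; no probe set with several genes carries the name. It passed the filter on low signals, which kept 26482 probe sets with a log2 signal of 5 or more in at least 3 arrays, and it reached 5 in 38 of 54 arrays. The gene was chosen by its measured difference in signal between the varieties Archer and Minsoy, so that difference is described here without a test. Comparisons between the recombinant lines and between seed stages were not used in that choice and were tested. They were set with earlier results of these data known. The recombinant lines derive from Archer and Minsoy, so they can inherit the difference the gene was chosen by.

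Family 1 glycosyltransferases move a sugar from a nucleotide sugar to a small molecule. Most of those that act on flavonoids form an O-glycoside, a bond that acid or a glycosidase can cut, whereas a C-glucosyltransferase joins glucose to a carbon of the flavonoid ring and gives a product that resists such cleavage. UGT708D1 of soybean is known to act on open forms of 2-hydroxyflavanones, and the products can lose water to give flavone C-glucosides such as vitexin and isovitexin.

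Total RNA of whole seeds was hybridized to Affymetrix soybean arrays, with 3 arrays for each of 18 groups. Archer and Minsoy seeds, 2, 3.5 or 5-6 mm long, came from field plants of 2007 and again of 2008, without any treatment in the labels. Seeds of the same lengths came in 2007 from 2 recombinant inbred lines of these parents, 1 called the High yield line (6049-273) and 1 called the Low yield line (6049-32). Each is 1 line, so a difference between them belongs to these lines and not to yield in general. In 2007 the replicates were 3 samples from a single row of each line, and in 2008 they were 3 plantings with paired rows pooled, so p-values measure the spread between these samples. Whole seeds hold seed coat and embryo: at 5-6 mm the glycinin gene GY1 reached a log2 signal of 5 in 16 of 18 arrays and the seed coat gene SCB1 in 18. In such samples fewer cells of a type and less RNA per cell cannot be told apart. The values show 3 sets of 18 arrays that were processed apart (parents of 2007, parents of 2008, recombinant lines), and levels were compared only within a set.

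Several arrays did not behave as labelled. A line score was computed for each array from the 100 other probe sets that best separated the lines of its set, scaled so that 0 is the median of Minsoy or of the Low yield line and 1 that of Archer or of the High yield line. It lay between 0.89 and 1.03 in the Archer arrays and between -0.06 and 0.13 in the Minsoy arrays. In the recombinant lines 4 arrays lay over 0.25 from the end of their own line: 0.96 in the Low yield line at 2 mm replicate 1, 0.31 and 0.28 in the Low yield line at 5-6 mm replicates 1 and 3, and 0.24 in the High yield line at 5-6 mm replicate 1. By a stage score from 200 probe sets each way, 3 arrays lay nearest to the opposite stage: Low yield line 2 mm replicate 1, Minsoy 2008 2 mm replicate 1 and Minsoy 2008 5-6 mm replicate 1. The Low yield line array at 3.5 mm replicate 3 is named for the other recombinant line in its description, and its title was followed; its line score was 0.0035. Values of UGT708D1 that rest on these arrays and the likeness of other genes to it are given with and without them, except where stated. Some differences of pathway genes are also given both ways.

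UGT708D1 was high in every Archer seed sample and lower in every Minsoy sample of the same stage and year. In 2007 the log2 signals at 2 mm were 9.45, 9.51 and 10.11 in Archer, against 5.69, 7.56 and 4.78 in Minsoy. At 3.5 mm the arrays gave 10.06, 9.98 and 10.09 in Archer, against 5.69, 8.58 and 5.62 in Minsoy. Seeds of 5-6 mm had 10.25, 10.22 and 10.13 in Archer, against 6.12, 9.50 and 9.90 in Minsoy. The Archer arrays of 2007 thus sat close together, while the Minsoy arrays ranged widely and 2 of them at 5-6 mm came within 1 log2 unit of Archer.

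The log2 difference, Archer minus Minsoy, was 3.68 at 2 mm, 3.41 at 3.5 mm and 1.70 at 5-6 mm in 2007. The ranges of the lines did not overlap at any of these stages, with gaps of 1.88, 1.40 and 0.24 between the lowest Archer and the highest Minsoy array. Leaving out Minsoy replicate 1 at 5-6 mm left a difference of 0.50 at that stage. Over the 9 arrays of each line the mean was 9.98 ± 0.29 in Archer and 7.05 ± 1.89 in Minsoy (SD, n = 9 each), a difference of 2.93 or 7.61-fold.

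In 2008 the separation was complete at all 3 stages. At 2 mm the log2 signals were 8.50, 8.93 and 8.89 in Archer, against 2.96, 2.96 and 2.97 in Minsoy. The 3.5 mm seeds gave 8.51, 9.05 and 8.93 in Archer, against 3.42, 2.95 and 4.81 in Minsoy. At 5-6 mm the values were 9.05, 8.71 and 9.78 in Archer, against 2.95, 3.81 and 2.96 in Minsoy. No Minsoy array of 2008 reached a log2 signal of 5, and 6 of the 9 lay within 0.05 of the lowest value of the probe set in that set, so the size of the difference depends there on the bottom of the scale.

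The differences of 2008, Archer minus Minsoy, were 5.81, 5.10 and 5.94 at 2, 3.5 and 5-6 mm. Without the 2 Minsoy arrays of that year with displaced stage scores they were 5.81, 5.10 and 5.80. Mean levels over the 9 arrays were 8.93 ± 0.38 in Archer and 3.31 ± 0.64 in Minsoy (SD, n = 9 each). The mean difference of 5.62 (49.1-fold) was larger by 2.69 (SE 0.96) than that of 2007. As it is made from the differences the gene was chosen by, this change between years is given without a test.

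**Figure D1:**
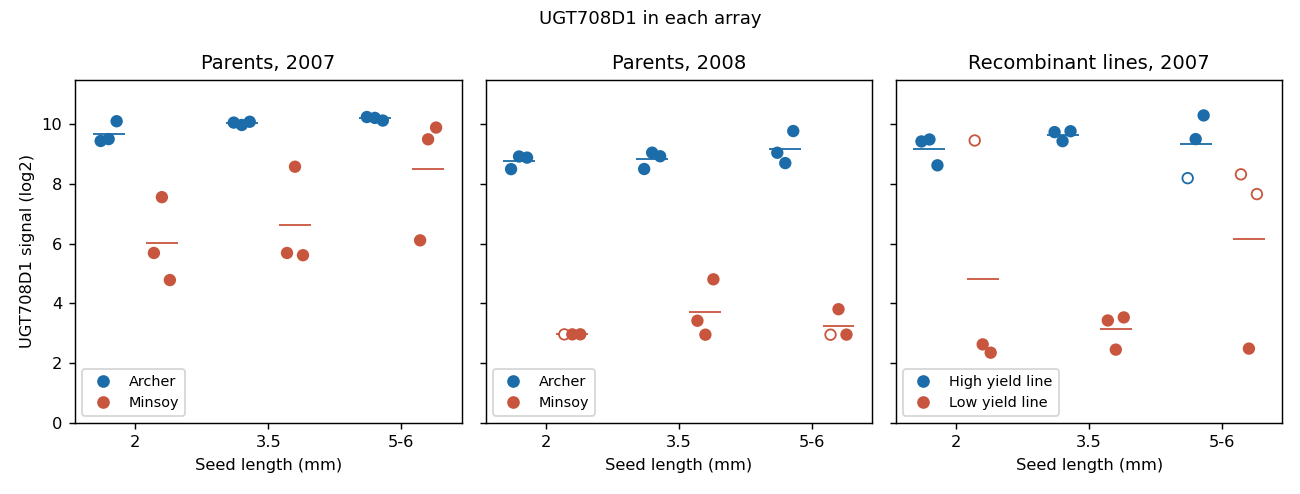
Log2 signal of UGT708D1 in all 54 arrays by seed length (mm), in 3 panels for the sets processed apart; blue points are Archer or the High yield line, red points Minsoy or the Low yield line, bars are means of 3 arrays, and open points are the 6 arrays set apart by line or stage score. Archer and High yield points lie between 8.20 and 10.30, and Minsoy 2008 points lie under 5. Minsoy 2007 points range from 4.78 to 9.90 and Low yield points from 2.35 to 9.46.

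Between the recombinant lines UGT708D1 was higher in the High yield line. At 3.5 mm, where no array was set apart, the log2 signals were 9.74, 9.44 and 9.77 in the High yield line, against 3.43, 2.45 and 3.53 in the Low yield line. The lowest High yield array lay 5.91 above the highest Low yield array. The difference was 6.51 (SE 1.17, adjusted p = 0.000678 by limma, with 1.66% of probe sets called at this stage). The Low yield signals lay under the filter level of 5, above 30.9%, 20.2% and 31.3% of the probe sets of their arrays. The fold of 91.4 that this difference gives thus rests on low signals and is not exact. Fitted on the 18 recombinant arrays alone it had the same size and an adjusted p of 0.214.

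At 2 mm the values were 9.43, 9.50 and 8.63 in the High yield line, against 9.46, 2.63 and 2.35 in the Low yield line. The ranges overlapped through Low yield replicate 1, the array with a line score of 0.96 and a stage score of 3.90, where the other Low yield arrays of this length had stage scores of -3.79 and -4.52. The difference was 4.37 (SE 1.17, adjusted p = 0.0151 by limma, with 7.87% of probe sets called). Without that array it was 6.70. The call was lost without Low yield replicate 2 (3.28, adjusted p = 0.0931) or 3 (3.14, adjusted p = 0.118), and without High yield replicate 1 (4.25, adjusted p = 0.0646) or 2 (4.22, adjusted p = 0.0654). Fitted on the 18 recombinant arrays alone the limma adjusted p at 2 mm was 0.222.

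Seeds of 5-6 mm had 8.20, 9.51 and 10.30 in the High yield line, against 8.33, 2.49 and 7.67 in the Low yield line. High yield replicate 1 lay below Low yield replicate 1, and the difference of 3.18 (SE 1.17) did not pass the test (adjusted p = 0.826 by limma). It was 1.34 without Low yield replicate 2 and up to 4.26 when another of the 6 arrays was left out, and none of these passed. At this stage limma called 0 of 26482 probe sets. An unadjusted p under 0.05 was found for 1115, of the order that this limit alone gives. The 3 arrays with intermediate line scores were all at this stage. These arrays were compared by median difference over 100 line markers of these lines, chosen without the arrays set apart by line score. High yield replicate 1 differed from Low yield replicate 3 by 0.14 and from Low yield replicate 1 by 0.40. It differed from the other 2 High yield arrays by 2.20 and 2.14. Low yield replicate 2 differed by 0.98 from High yield replicate 1 and by 0.95 from each of Low yield replicates 1 and 3. Thus High yield replicate 1 and Low yield replicates 1 and 3 were alike at these markers under both line labels. UGT708D1 was at 8.20 in the one labelled High yield and at 8.33 and 7.67 in those labelled Low yield.

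Over all 3 stages the mean was 9.39 ± 0.63 in the High yield line and 4.70 ± 2.90 in the Low yield line (SD, n = 9 each). The difference of 4.69 (SE 0.68) passed limma's test (adjusted p = 7.54e-06), as did 5.37% of the probe sets tested, with 3.31% of those tested called higher in the High yield line. An exact two-sided permutation test of this value, with line labels permuted within stages, gave p = 0.002, where the smallest possible p was 0.00025. For each stage alone the exact permutation test gave p = 0.3 at 2 mm, 0.1 at 3.5 mm and 0.2 at 5-6 mm. There the smallest possible p was 0.1. By size the mean difference ranked 15 of 26482 probe sets and 6 of the 6958 with 1 annotated gene, and all 15 of at least this size were called. Leaving out any 1 of the 18 arrays gave differences of 4.08 to 5.46.

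Without the 4 arrays set apart by line score the mean difference was 6.88 (SE 0.48), with 6.70 at 2 mm, 6.51 at 3.5 mm and 7.42 at 5-6 mm. The Low yield line then has 1 array at 5-6 mm, which is assumed to vary like the other groups. These arrays were set apart by probe sets that separate the same lines, so a larger difference without them is in part fixed by that choice. The 6 Low yield arrays that remain had UGT708D1 signals of 2.35 to 3.53.

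**Figure D2:**
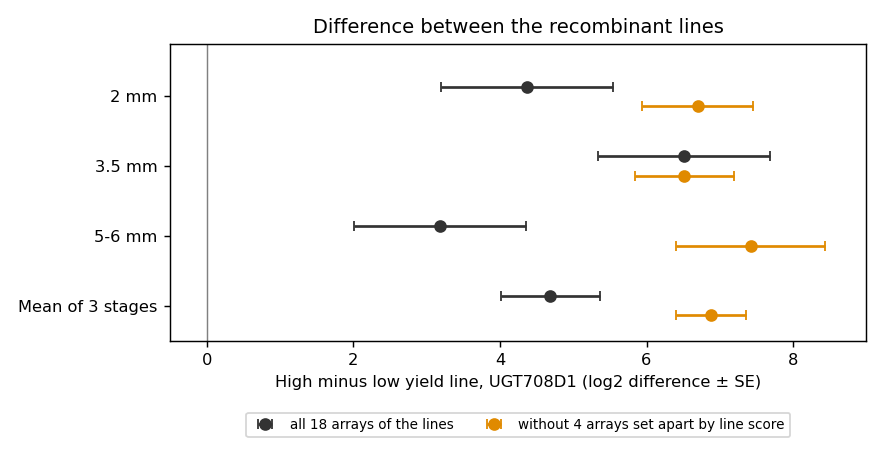
Difference of UGT708D1 between the recombinant lines (High minus Low yield line, log2) at each seed length and as the mean of 3 stages; points are limma estimates, bars are ± SE, black is with all 18 arrays of the lines and orange is without the 4 arrays set apart by line score. At 3.5 mm, where no array was left out, both estimates are 6.51, and at 5-6 mm they are 3.18 and 7.42.

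The spread of UGT708D1 within a line moved with the line score most closely in Minsoy 2007 and in the Low yield line. Among the 9 Minsoy arrays of 2007, the 4 with the highest UGT708D1 signal were also the 4 with the highest line score. Their scores were 0.06 to 0.13 and those of the other 5 arrays -0.06 to -0.0015 (Pearson's r of 0.91 over 9 arrays, a description across samples of different stages). In the Low yield line the 4 highest arrays were also the 4 highest by line score (r of 0.89 over 9 arrays). Their scores ran from 0.0035 to 0.96, and those of the other 5 from -0.098 to -0.0009. The arrays at 0.96, 0.31 and 0.28 are among these 4 and had been set apart by this same score, so the order rests largely on them. In Minsoy 2008 the r was 0.59, with 2 of the 4 highest arrays also among the 4 highest by line score, and in the High yield line it was 0.58, with 1 of 4. In Archer the r was -0.39 in 2007 and 0.07 in 2008. For the recombinant lines and Minsoy 2008, r was not computed without the arrays set apart by line or stage score.

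**Figure D3:**
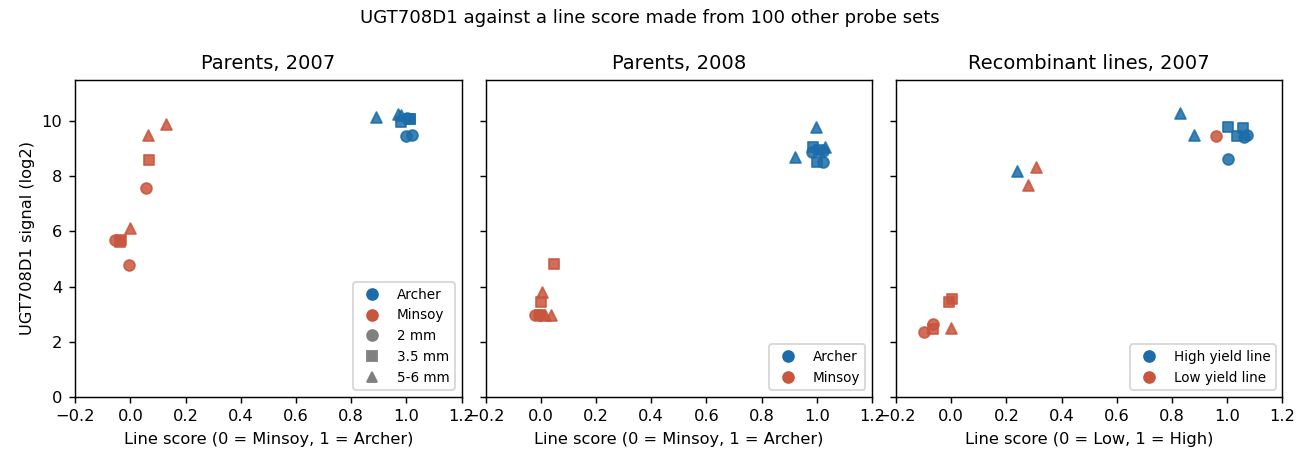
Log2 signal of UGT708D1 (vertical axis) against the line score from 100 other probe sets (horizontal axis, no unit) for the arrays of each set; blue is Archer or the High yield line, red is Minsoy or the Low yield line, and marker shape gives seed length. In the 2007 sets the red points climb steeply over a small rise of line score, and 3 recombinant arrays lie at scores of 0.24 to 0.31 with signals of 7.67 to 8.33.

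Other probe sets with the on and off pattern of UGT708D1 in the parents of 2008 were then followed in the same arrays. In 2008, 11 other probe sets had Archer arrays more than 2 above all Minsoy arrays, a Minsoy mean under 5 and an Archer mean of at least 7.5 (limits set after the data had been seen). Their median signal in the 4 Minsoy 2007 arrays with high UGT708D1 was 6.27 at 2 mm replicate 2, 6.52 at 3.5 mm replicate 2, and 5.56 and 8.34 at 5-6 mm replicates 2 and 3. In the other Minsoy arrays of 2007 it was 2.74, 4.02, 3.26, 4.17 and 4.48. The Minsoy arrays with high UGT708D1 thus also held higher median signals of these probe sets, which were high in Archer in 2008. The part of this in the UGT708D1 values was not tested. Not every companion followed: LOC100500577 was at 8.88 in Minsoy 5-6 mm replicate 3 and at 1.98 in replicate 2, while UGT708D1 was at 9.90 and 9.50 there.

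Of these 11 probe sets, 3 separated the recombinant lines at 3.5 mm as UGT708D1 did and 8 did not. LOC100500577 had a mean log2 signal of 10.20 in the High yield line and 1.88 in the Low yield line at 3.5 mm. The other pair have no gene name here and are called unnamed 1 and unnamed 2. Their means were 8.07 and 9.83 in the High yield line, against 2.39 and 5.53 in the Low yield line. Unnamed 2 did not separate the parents in 2007, at 3.81 to 5.25 in Archer and 3.22 to 5.52 in Minsoy. In the 3 alike arrays at 5-6 mm, 2 of the companions were low where UGT708D1 was high. LOC100500577 was at 1.85 in High yield replicate 1, and at 1.88 and 1.85 in Low yield replicates 1 and 3, all at its Low yield level. Unnamed 2 was at 4.59 in High yield replicate 1, and at 4.29 and 4.22 in those Low yield arrays. Unnamed 1 lay between, at 4.49 in High yield replicate 1 and at 3.89 and 3.13 in the same Low yield arrays, above the 1.93 of Low yield replicate 2 and below the 5.92 and 6.08 of High yield replicates 2 and 3. UGT708D1 was between 7.67 and 8.33 in the same 3 arrays, far above the 2.49 of Low yield replicate 2.

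**Figure D4:**
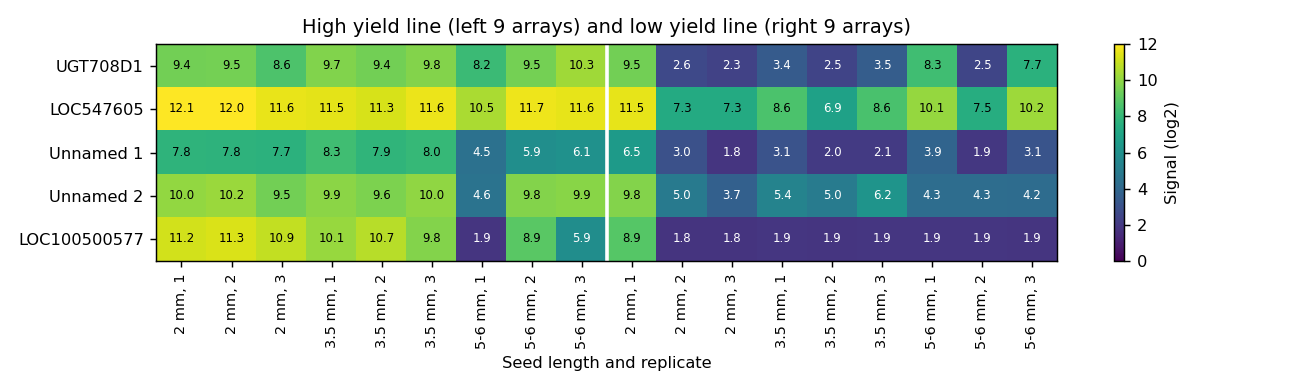
Log2 signal (colour and printed value) of UGT708D1, LOC547605 and the 3 other Archer-high probe sets that separated the recombinant lines, in the 9 High yield arrays (left of the white line) and the 9 Low yield arrays (right), by seed length and replicate; rows are read across, since signals of different probe sets have no common scale. Low yield 2 mm replicate 1 is high in all 5 rows, while Low yield 5-6 mm replicates 1 and 3 are high in UGT708D1 and LOC547605 and low in LOC100500577.

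No change of UGT708D1 with seed stage passed the test, in comparisons where many probe sets did. Over the 6 combinations of line and year, the difference between 5-6 mm and 2 mm was 0.86 (SE 0.48, adjusted p = 0.114 by limma), while 62.5% of probe sets were called. Its 95% interval ran from -0.10 to 1.83. A permutation test of this value within line and year gave p = 0.114. The differences were 0.10 (SE 0.48, adjusted p = 0.900) between 3.5 and 2 mm and 0.77 (SE 0.48, adjusted p = 0.171) between 5-6 and 3.5 mm, with 27.7% and 55.2% of probe sets called.

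Single arrays decided the first of these. The difference between 5-6 and 2 mm passed the test without Low yield 2 mm replicate 1 (1.25, adjusted p = 0.00424 by limma), without Low yield 5-6 mm replicate 2 (1.17, adjusted p = 0.0172) or without Minsoy 2007 5-6 mm replicate 1 (1.06, adjusted p = 0.0459). It was 0.73 (adjusted p = 0.0393) without the 4 arrays set apart by line score. The size of any rise of UGT708D1 with stage therefore rests on which of these arrays are kept.

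Within lines, the difference between 5-6 mm and 2 mm was 0.51 in Archer 2007, 0.41 in Archer 2008 and 0.15 in the High yield line, none of which passed the test (adjusted p = 0.784, 0.875 and 0.940 by limma, with 29.5%, 10.7% and 39% of probe sets called). Minsoy 2007 had the highest, 2.49 (SE 1.17, adjusted p = 0.0814, with 43.6% of probe sets called), and it passed without 2 mm replicate 2 (3.27, adjusted p = 0.0427), without 5-6 mm replicate 1 (3.69, adjusted p = 0.0153) or when the 18 arrays of that set were fitted alone (adjusted p = 0.042). The Minsoy 2008 arrays differed by 0.27 (adjusted p = 0.985 by limma), and by 0.42 without the arrays with displaced stage scores. In that comparison limma called 0 probe sets and 1435 had an unadjusted p under 0.05, of the order that this limit alone gives. In the Low yield line the difference was 1.35 (adjusted p = 0.618, with 0.306% of probe sets called), and it was 3.67 (adjusted p = 0.0118) without 2 mm replicate 1 but -0.0023 without the arrays with displaced line scores.

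The stage change of Archer minus that of Minsoy was -0.92, given without a test because it too is made from the Archer and Minsoy differences. Between the High and the Low yield line it differed by -1.20 (SE 1.66, adjusted p = 0.768, with 1.18% of probe sets called), with a 95% interval of -4.55 to 2.16, which holds 0. In order of stage means, UGT708D1 stood at 9.69, 10.05 and 10.20 in Archer 2007 and at 8.77, 8.83 and 9.18 in Archer 2008, steps within the spread of the arrays except that the 3 Archer arrays at 5-6 mm of 2007 lay above the other 6 of that year.

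The probe set whose pattern was most like UGT708D1 was annotated to LOC547605, with Pearson's r of 0.98 over the 54 arrays after each set was centred on its own mean. With the mean of each labelled line removed as well, r was 0.92, so the 2 probe sets also moved together among arrays under the same line label. That r includes the arrays set apart by line or stage score, and an r with line means removed was not computed without them. LOC547605 averaged 9.28 ± 0.16 in Archer and 7.14 ± 1.04 in Minsoy in 2007, and 9.29 ± 0.18 in Archer and 5.58 ± 0.31 in Minsoy in 2008 (SD, n = 9 each). In the recombinant lines it averaged 11.55 ± 0.47 in the High yield line and 8.67 ± 1.62 in the Low yield line. Its highest Low yield arrays were 2 mm replicate 1 at 11.54 and 5-6 mm replicates 1 and 3 at 10.09 and 10.23, the same arrays as for UGT708D1. LOC100778550 was next, with an r of 0.94. In all, 33 of 26481 probe sets had an r of at least 0.8 and 21 of -0.8 or below; all arrays share their line differences, so these values describe likeness of pattern only. Over the 48 arrays that neither score set apart, with line differences kept, r was 0.98 for LOC547605 and 0.95 for LOC100778550.

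Among 803 genes with a descriptive symbol, BZIP130, a bZIP transcription factor gene, was most like UGT708D1 (r of 0.86, and 0.64 with line means removed). In the parents BZIP130 averaged 8.34 in Archer and 6.70 in Minsoy in 2007, and in the recombinant lines 11.15 in the High yield line and 9.60 in the Low yield line. GSTZ3, of the zeta class of glutathione S-transferases, followed with an r of 0.67, made up of 0.96 over the 36 parental arrays and -0.23 over the 18 recombinant arrays. BZIP94 (0.64), the calmodulin gene SCAM-4 (0.61) and the seed coat peroxidase gene Ep (0.57) came next. Over the parental arrays r was 0.12 for BZIP94, 0.62 for SCAM-4 and 0.42 for Ep. Over the recombinant arrays it was 0.96, 0.64 and 0.77. BZIP94 was at 1.96, the lowest value of its set, in all 18 Minsoy arrays and in the 9 Archer arrays of 2008. The most opposite patterns were those of ERF3, an ethylene response factor gene (-0.89), ICE4 (-0.83) and ALDH10A2, an aldehyde dehydrogenase gene (-0.75).

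ERF3 averaged 12.17 in Archer and 13.14 in Minsoy in 2007, against which UGT708D1 ran the other way in each set. With line means removed its r was -0.66, and that of GSTZ3 was 0.35. Over the 48 arrays not set apart, r was 0.87 for BZIP130, 0.67 for GSTZ3, 0.66 for BZIP94, 0.61 for SCAM-4, 0.59 for Ep, -0.92 for ERF3, -0.85 for ICE4 and -0.80 for ALDH10A2. Within 20 genes on either side of UGT708D1 in the RefSeq gene order, only LOC100500648 had a probe set of its own, and both of its probe sets were under the filter, so the neighbourhood of the gene was not measured here.

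Other genes of the flavonoid pathway were called between the lines in numbers too small to read against all probe sets. Of 35 such genes on the array, from phenylalanine to isoflavones, flavonols, anthocyanins and proanthocyanidins and including the glycosyltransferases UGT78K1 and UGT1, 31 passed the filter. Between the recombinant lines, 0 of 31 were higher in the High yield line and 5 lower at an unadjusted limma p under 0.05. The share of all probe sets at that unadjusted limit is not given here. At an adjusted p under 0.05 limma called 0 higher and 3 lower, against 3.31% and 2.05% of all probe sets. These counts were too small to read against that background. Those called lower were LAR1, a leucoanthocyanidin reductase of proanthocyanidin synthesis (-1.81, adjusted p = 2.28e-05), IFR1, an isoflavone reductase (-0.67, adjusted p = 0.00732), and 4CL, a coumarate CoA ligase (-0.50, adjusted p = 0.0178). The median difference was -0.12 over the list and 0.01 over all probe sets. Without the 6 arrays set apart by either score, LAR1 was at -2.26, 4CL at -0.44 and IFR1 at -0.63. These are sizes only, since that fit keeps 1 array of the Low yield line at 5-6 mm.

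Between Archer and Minsoy, averaged over stages and years, 1 of the 31 genes was higher and 6 lower at an unadjusted limma p under 0.05. Here too the share of all probe sets at the unadjusted limit is not given. At an adjusted p under 0.05 limma called 0 higher and 4 lower. Of all probe sets 9.93% were called, 5.01% higher and 4.92% lower. Again the counts were too small to read against that background. LAR1 was again the lowest (-2.69, adjusted p = 2.60e-13), followed by the chalcone reductase gene CHR4 (-0.66), the cinnamate hydroxylase gene C4H (-0.40) and 4CL2 (-0.23). Without the 6 arrays set apart, these 4 were at -2.67, -0.64, -0.41 and -0.23. UGT78K1, known for glucosylating anthocyanidins at an oxygen, differed by -0.39 between the parents (adjusted p = 0.471 by limma) and by -0.74 between the recombinant lines (adjusted p = 0.449).

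With seed stage, 11 of the 31 genes rose and 10 fell between 2 and 5-6 mm, against 25.5% and 37% of all probe sets, a joint share near the 62.5% of the background, while UGT708D1 was not called. The fit without the 6 arrays set apart keeps 1 array of the Low yield line at 5-6 mm, so no count is given from it. The isoflavone synthase genes IFS2 and IFS1 rose by 4.84 (SE 0.59) and 4.83 (SE 0.64), although such near-identical copies may share signal on these probe sets. The isoflavone malonyltransferase gene IF7MaT rose by 3.94 (SE 0.35), the chalcone isomerase gene CHI1B1 by 3.28 (SE 0.38) and UGT78K1 by 2.92 (SE 0.31), each with a limma adjusted p of at most 4.64e-08. The chalcone synthase gene CHS8 fell by 1.40 (SE 0.27, adjusted p = 2.34e-05). Without the 6 arrays set apart, differences were 5.98 for IFS2, 6.06 for IFS1, 4.51 for IF7MaT, 4.02 for CHI1B1, 3.47 for UGT78K1 and -1.91 for CHS8.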

How the data were processed

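Values are the deposited log2 signals of 54 Affymetrix soybean arrays. GCRMA, which corrects background, normalizes and summarizes probes, is named without a version by the submitters' processing notes as the step the authors took. The values show 3 sets with different lowest values (1.9586, 1.9616 and -1.5572), so differences were taken within sets. Values near these floors have no exact order.

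Of 37744 probe sets, 126 Affymetrix controls and 48 for ribosomal RNA were removed. The array annotation gave 1 gene for 8677 probe sets and several for 370; 8652 of the former matched a RefSeq gene. With R 4.3.3 and limma 3.58.1, the 54 arrays were modelled with 1 mean per group (18 groups). Contrasts went through eBayes, and Benjamini-Hochberg adjustment covered 26482 probe sets, with calls at an adjusted p under 0.05. The code was tested on simulated data. UGT708D1, the gene lists and the comparisons were chosen with earlier results of these data known. CHIA1, which shares a stem with the chalcone isomerases, was left out of the lists as another gene. Up to 4 called genes with the largest differences were to be named per comparison, and by likeness the 5 highest and 3 lowest; CHI1B1, UGT78K1 and CHS8 among the stage changes, the companion probe sets, LOC547605 and LOC100778550 were chosen after their values were seen. Line scores are medians over 100 markers, chosen for each array without it and without UGT708D1. Per the labels, replicate numbers of 2008 mark plantings and so pair the arrays of that year; for 2007 they have no stated meaning. Residuals of same-numbered arrays correlated between -0.25 and 0.48 in the parents of 2008, between -0.47 and 0.55 in the parents of 2007 and between -0.22 and 0.51 in the recombinant lines. The change between years of the difference between Archer and Minsoy and its change with stage were fitted, but no p is given, since the gene was chosen by that difference. The number of arrays limits the precision. Tried as alternatives were dropping the filter, raising it to log2 7, quantile normalization, median centring, a replicate block, trended and robust eBayes, array weights, only the arrays compared, 1-gene probe sets, each array left out, and, added after seeing the data, the arrays set apart left out.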

Additional observations from a re-analysis of the deposited data

How the results depend on the processing

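UGT708D1 stayed higher in the High yield line at each stage and in the mean under every alternative run, and the mean kept its call (adjusted p up to 0.0246). With the replicate number as a block (replicate block), the mean difference between the recombinant lines was 4.69 (adjusted p = 0.000144 by limma) and the stage difference 0.86 (adjusted p = 0.0964); the block changed no call. Array weights brought past the threshold the difference between 5-6 and 2 mm (1.30), that between 5-6 and 3.5 mm (0.83), the stage difference of the Low yield line (3.62) and the High minus Low yield stage change (-3.60). Fitting only the arrays of the sets compared ended the calls between the recombinant lines at 2 mm (4.37) and 3.5 mm (6.51), and brought past the threshold the stage difference of Minsoy 2007 (2.49); for means over all 3 sets this alternative is the same fit and was not run.

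Without the 4 arrays set apart by line score, the recombinant lines differed by 7.42 at 5-6 mm. The mean stage difference was then 0.73 and that of Minsoy 2007 2.49. The stage difference of the Low yield line (-0.0023) and the High minus Low yield stage change (0.72) turned sign. That fit keeps 1 array of the Low yield line at 5-6 mm. Without the 3 arrays set apart by stage score, the mean stage difference (1.27), Minsoy 2007 (2.49) and the Low yield line (3.67) passed. Without all 6, the recombinant lines differed by 7.42 at 5-6 mm, the mean stage difference was 0.76 and that of Minsoy 2007 2.49. Those that turned sign were at -0.0023 and 0.72. The change of the parental difference between years, given as a size only, was 2.76 with array weights, 2.69 with only the parental arrays or without the 4 arrays, and 2.64 without all 6. Leaving out each array in turn gave -0.11 to 0.49 for 3.5 minus 2 mm, 0.66 to 1.25 for 5-6 minus 2 mm and 0.58 to 1.07 for 5-6 minus 3.5 mm, which passed without Low yield 5-6 mm replicate 2. Within lines the stage difference ranged from 1.80 to 3.69 in Minsoy 2007, -0.0095 to 0.42 in Minsoy 2008, -0.33 to 0.72 in the High yield line and 0.11 to 3.67 in the Low yield line, and the High minus Low yield change from -3.52 to 0.0366. The High minus Low yield difference ranged from 3.14 to 6.70 at 2 mm and from 1.34 to 4.26 at 5-6 mm, and the Archer minus Minsoy difference of 2007 from 2.91 to 4.39 at 3.5 mm and from 0.50 to 2.39 at 5-6 mm. The cause of these shifts was not tested. Signals near the floor, as in Minsoy 2008, limit how far a fold can be read.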
